A study of Homo sapiens with 4 samples.

Results

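The 10 genes described here encode heterogeneous nuclear ribonucleoproteins (hnRNPs): HNRNPA1, HNRNPA2B1, HNRNPA3, HNRNPC, HNRNPF, HNRNPH1, HNRNPK, HNRNPL, HNRNPM and HNRNPU. Their peaks were taken from a list of RNA regions recovered with PRMT5. Each peak's Ensembl identifier was matched to the RefSeq gene (GRCh38.p14) at that position, on the same strand except for HNRNPA1. That gene was matched by position alone, because the reference used gave no strand for it. All 10 genes were found among 8478 gene identifiers, with 44 of the 18993 peaks. The cells were Jurkat, an established human leukemic T cell line, stimulated with the lectin PHA for 48 hours and fixed with UV light (264 nm, 400 mJ by the sample labels). RNA associated with PRMT5, an arginine methyltransferase, was recovered by FLAG immunoprecipitation of the lysate (RIP), and 2 PRMT5 RIP libraries were sequenced beside 2 input libraries of the same stimulated and fixed cells. The peak list gives each peak 1 value for PRMT5 RIP and 1 for input, both in RPM, a read count scaled to the size of the library. No value per library was used here, so no spread between replicates and no test can be given, and every ratio below compares pooled libraries. An immunoprecipitation from unstimulated cells, from cells without the FLAG tag or with a control antibody was not analysed here.

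hnRNPs are abundant nuclear proteins that coat RNA as it is transcribed and act in splicing, export, stability and translation of mRNA. Most bind RNA through RRM or KH domains, and several carry arginine and glycine rich stretches that are methylated by arginine methyltransferases, the enzyme family to which PRMT5 belongs. Many hnRNP proteins also regulate the splicing of hnRNP transcripts, their own included. The values here are for the RNA of these genes, not for the proteins.

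Most hnRNP transcripts were recovered with PRMT5 only modestly above input. All 44 peaks were higher in PRMT5 RIP than in input, in a list that the authors' caller had already selected for enrichment. The list also holds peaks below input, such as that of HNRNPA1L2 (8.94 against 10.26 RPM). The share of all peaks above input was not counted here, so the 44 cannot be set beside it. A ratio of RPM of at least 2 was reached by 14 of the 44 peaks (31.8%), against 55.7% of all peaks in the list. On the log2 scale, with 0.01 added to both values, the median ratio over the hnRNP peaks was 0.66 (range 0.11 to 3.95), against 1.10 over all 18993 peaks. The hnRNP peaks also held more input RNA, with a median of 6.16 RPM in input against 0.83 RPM over all peaks. In this bulk lysate, more cells with a transcript and more transcript per cell cannot be told apart.

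**Figure D1:**
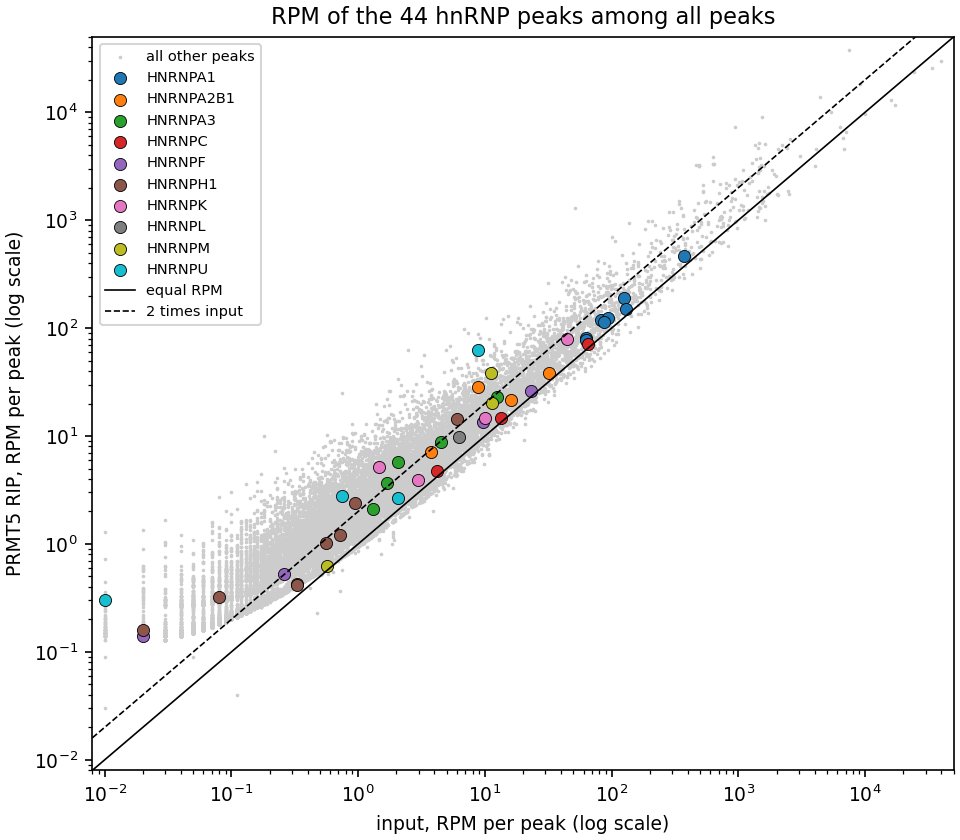
RPM per peak in input (x axis, log scale) and in PRMT5 RIP (y axis, log scale) for the 44 hnRNP peaks (coloured by gene) and all other peaks with values above 0 (grey), with lines at equal RPM and at 2 times input. All hnRNP peaks lie above the line of equal RPM, and 14 of them lie on the far side of the 2-fold line, including the first HNRNPU peak (62.01 against 8.86 RPM).

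Most of these genes had a peak that began near an annotated start of transcription. In 10 of the 44 hnRNP peaks (22.7%) the 5′ edge lay within 50 nt of a RefSeq start, against 16.9% of all peaks. Within 100 nt the shares were closer, 22.7% against 21.4%. At least 1 such peak was found in 8 of the 9 hnRNP genes that the promoter table holds, against 51.1% of 5863 genes of the list named in that table and 37.3% of all 8478 genes. These shares do not account for the number of peaks per gene (44 over the 10 hnRNP genes, 18993 over all 8478). Counted over all genes found, in that table or not, 8 of the 10 hnRNP genes had a peak near a start. By the same count, so did 13 of 18 other hnRNP-family genes, 8 of 11 SR splicing factors and 11 of 15 Sm and LSm genes. Of the 9 hnRNP genes in the table, the exception was HNRNPL, whose single peak began 108 nt past its second annotated start. HNRNPA1 is missing from the table, and its first peak began 17 nt inside the RefSeq gene. The windows below are shown because the edge of the peak can be read in them. Each runs from 50 bases before to 30 bases after the annotated start, 5′ to 3′ on the strand of the gene, from RefSeq (GRCh38.p14), with the bases inside the peak in capitals.
HNRNPA2B1 peak 1, chr7:26200717-26200796, minus strand: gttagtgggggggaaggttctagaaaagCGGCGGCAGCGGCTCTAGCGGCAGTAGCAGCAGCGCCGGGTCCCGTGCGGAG
HNRNPA3 peak 1, chr2:177212744-177212823, plus strand: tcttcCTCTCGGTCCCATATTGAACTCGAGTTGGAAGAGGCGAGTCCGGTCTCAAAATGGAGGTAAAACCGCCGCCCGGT
HNRNPH1 peak 1, chr5:179623642-179623721, minus strand: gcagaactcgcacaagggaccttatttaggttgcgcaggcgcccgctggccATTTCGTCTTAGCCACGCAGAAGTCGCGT
HNRNPH1 peak 2, chr5:179623372-179623451, minus strand: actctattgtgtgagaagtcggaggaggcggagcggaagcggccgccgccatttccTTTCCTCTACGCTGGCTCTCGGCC
HNRNPK peak 1, chr9:83980586-83980665, minus strand: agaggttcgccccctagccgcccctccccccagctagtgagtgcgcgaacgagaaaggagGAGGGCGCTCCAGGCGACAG
HNRNPK peak 2, chr9:83980186-83980265, minus strand: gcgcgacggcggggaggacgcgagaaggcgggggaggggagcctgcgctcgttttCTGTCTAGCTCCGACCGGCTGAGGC
HNRNPM peak 1, chr19:8444925-8445004, plus strand: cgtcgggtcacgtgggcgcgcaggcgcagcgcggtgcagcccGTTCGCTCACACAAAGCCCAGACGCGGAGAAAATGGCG
HNRNPU peak 1, chr1:244864514-244864593, minus strand: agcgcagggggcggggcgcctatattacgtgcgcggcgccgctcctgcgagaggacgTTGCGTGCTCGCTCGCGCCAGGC

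The peaks of HNRNPM and HNRNPA2B1 began 8 and 22 bases before the annotated start, and that of HNRNPA3 began 45 bases before it. The HNRNPU peak began 7 bases after the start. In HNRNPK and HNRNPH1, a separate peak began close to each of a pair of starts: 10 and 5 bases after them in HNRNPK, and 1 and 6 bases after them in HNRNPH1. The HNRNPC peak began 29 bases and the second HNRNPF peak 48 bases after a start. Over the longer promoter windows (250 bases before to 50 after the start) of these 10 starts, the median GC content was 66.5% (range 49.3% to 70.7%), against 58.7% over all 35116 windows. The letters GGGCGG, on either strand, occurred in 6 of the 10 windows and in 45.0% of all windows. HNRNPC had the window with the lowest GC content.

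HNRNPA1, a shuttling protein that regulates splice site choice, had by far the highest RPM of the 10 genes. Listed as ENSG00000135486.19, it lies on the plus strand of chromosome 12 from 54280726 to 54287087, and carried 8 peaks. Summed, they had 1322.6 RPM in PRMT5 RIP against 1016.62 in input, a ratio of 1.30. Per kilobase of peak this came to 585.7 RPM after RIP and 450.2 RPM before it, above the other 9 genes in both. The first peak had 118.33 RPM in PRMT5 RIP against 81.97 in input, and the second, 1384 nt wide, 469.36 against 372.45. The next 3 peaks had 123.87 against 93.13, 81.06 against 63.28, and 188.73 against 125.71. The last 3 had 114.21 against 86.8, 149.82 against 130.8, and 77.22 against 62.48. The ratios were flat along the gene, between 1.15 and 1.5, and no HNRNPA1 peak reached 2-fold. RefSeq holds 77 further loci named as HNRNPA1 copies, and these values are uncertain because reads shared with such loci were not measured here.

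HNRNPA2B1, a paralog of HNRNPA1 known for RNA trafficking and splicing, had its highest ratio at its 5′ end. The gene (ENSG00000122566.22) lies on the minus strand of chromosome 7 from 26189927 to 26200746. Its first peak, 2905 nt wide, had 28.25 RPM in PRMT5 RIP against 8.82 in input, a ratio of 3.20. The second peak, just 3′ of the first, had 38.15 RPM against 32.05, and the third, 4315 nt wide, 21.39 against 16.05. The last had 7.05 RPM against 3.74. Only the first of the 4 peaks reached 2-fold, although the second held more RPM in both PRMT5 RIP and input.

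HNRNPA3, a further member of the A/B group, had intermediate ratios throughout. The gene (ENSG00000170144.22) spans 177212794 to 177223959 on the plus strand of chromosome 2. Its 5 peaks had, from 5′ to 3′, 5.75 RPM in PRMT5 RIP against 2.08 in input, 22.93 against 12.48, 2.09 against 1.31, 3.66 against 1.68, and 8.83 against 4.49. Peaks 1 and 4 passed 2-fold, with ratios of 2.76 and 2.18, and peak 5 lay just below it at 1.97. The first peak is the only one of the 44 that lists more than 1 identifier, and peaks 4 and 5 are overlapped by peaks on the opposite strand.

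HNRNPC, whose product forms the core of the particle on nascent transcripts and binds uridine tracts, stood closest to input. The gene (ENSG00000092199.19) spans 21209147 to 21269442 on the minus strand of chromosome 14. Its first peak, 3906 nt wide, had 14.56 RPM in PRMT5 RIP against 13.45 in input. The second, of 50 nt, had 4.71 against 4.18. The last had 71.89 against 65.6 over 51222 nt, the widest of the 44 hnRNP peaks. All 3 ratios lay between 1.08 and 1.13, and the peaks covered 91.5% of the gene. A single block of that width takes in introns as well as exons.

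HNRNPF and HNRNPH1 encode paralogs that bind runs of G, and both had their highest ratios in peaks with very little input. HNRNPF (ENSG00000169813.17) spans 43385618 to 43409186 on the minus strand of chromosome 10. Its first peak had 0.14 RPM in PRMT5 RIP against 0.02 in input, a ratio of 7 that could lie anywhere from 5.40 to 9.67 given values rounded to 0.01. The second had 0.53 RPM against 0.26, at the 2-fold line. The third, 9010 nt wide, had 25.87 against 22.99, and the last 13.4 against 9.62. Nearly all of the HNRNPF signal was therefore in peaks with ratios of 1.13 and 1.39, and its ratio of summed RPM was 1.21.

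HNRNPH1 (ENSG00000169045.17), on the minus strand of chromosome 5 from 179614178 to 179634784, had no peak in its first 11114 nt. RefSeq gives it 4 starts, and the first peak began at the third of them with 2.38 RPM in PRMT5 RIP against 0.94 in input. The second peak, of 25 nt, had 0.16 against 0.02. The third, 2269 nt wide, had 14.4 against 6.08, a ratio of 2.37 with 70.8% of the gene's RPM in PRMT5 RIP. The following 4 peaks had 0.43 against 0.33, 0.42 against 0.33, 1.02 against 0.56, and 1.22 against 0.72, and none of them reached 2-fold. The last peak had 0.32 RPM against 0.08, a ratio of 4 (3.71 to 4.33 by rounding). HNRNPH1 thus had 4 peaks past 2-fold, the most of the 10 genes, of which 2 had under 0.1 RPM in input.

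HNRNPK, which binds C-rich RNA and DNA through KH domains, differed between its neighbouring starts. The gene (ENSG00000165119.22) spans 83968083 to 83980615 on the minus strand of chromosome 9. The peak at the first start had 3.89 RPM in PRMT5 RIP against 2.97 in input, a ratio of 1.31. The peak at the second start had 5.21 against 1.45, a ratio of 3.59 and the only one of the gene past 2-fold. The third peak, 6879 nt wide, had 78.66 against 44.63, and the last 14.56 against 9.96. The hairpin gene MIR7-1 lies near the 3′ end of HNRNPK (83969748 to 83969857). No peak of the list lay over MIR7-1, and the nearest HNRNPK peak lay 1054 nt from it.

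HNRNPL, a binder of CA repeats that regulates CD45 splicing in T cells, had a single peak. The gene (ENSG00000104824.18) spans 38836370 to 38852347 on the minus strand of chromosome 19. The peak was 3890 nt wide, with 9.85 RPM in PRMT5 RIP against 6.24 in input, a ratio of 1.58. It ended at 39.8% of the gene's length, so that the last 9619 nt of the gene were without a peak.

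HNRNPM, a splicing regulator that binds GU-rich RNA, declined in steps from 5′ to 3′. The gene (ENSG00000099783.12) spans 8444975 to 8489114 on the plus strand of chromosome 19. Its first peak, 20404 nt wide, had 38.35 RPM in PRMT5 RIP against 11.13 in input, a ratio of 3.45. The second, 12204 nt wide, had 20.05 against 11.48, a ratio of 1.75. The third, of 25 nt, had 0.63 against 0.57, a ratio of 1.11. The input was nearly the same in the first and second peaks, and the PRMT5 RIP value was higher in the first. Within the first peak lies a peak of 150 nt on the opposite strand, with 14.22 RPM against 1.65, as described further on.

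HNRNPU, also called scaffold attachment factor A, ties RNA to chromatin and the nuclear scaffold, and its transcript had the highest ratio of the 10 over all peaks, a rank it lost to HNRNPH1 when the peaks overlapped on the opposite strand were left out. The gene (ENSG00000153187.21) spans 244850297 to 244864543 on the minus strand of chromosome 1. Its first peak, 875 nt wide, had 62.01 RPM in PRMT5 RIP against 8.86 in input, a ratio of 7, and held 91.5% of the gene's RPM in PRMT5 RIP. The second peak had 0.3 RPM against 0.01, a ratio of 30 that rounding alone allows to lie between 19.7 and 61.0. The third had 2.78 against 0.74, a ratio of 3.76, and the last, in the far part of the gene, 2.67 against 2.08, a ratio of 1.28. The ratios spanned 3.60 on the log2 scale, the widest range within any of the 10 genes. The upper end of that span was the second peak, with 0.01 RPM in input, and the first and last peaks differed by 2.45. A peak on the opposite strand covers 85.7% of the first HNRNPU peak, with nearly the same values, as described further on.

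**Figure D2:**
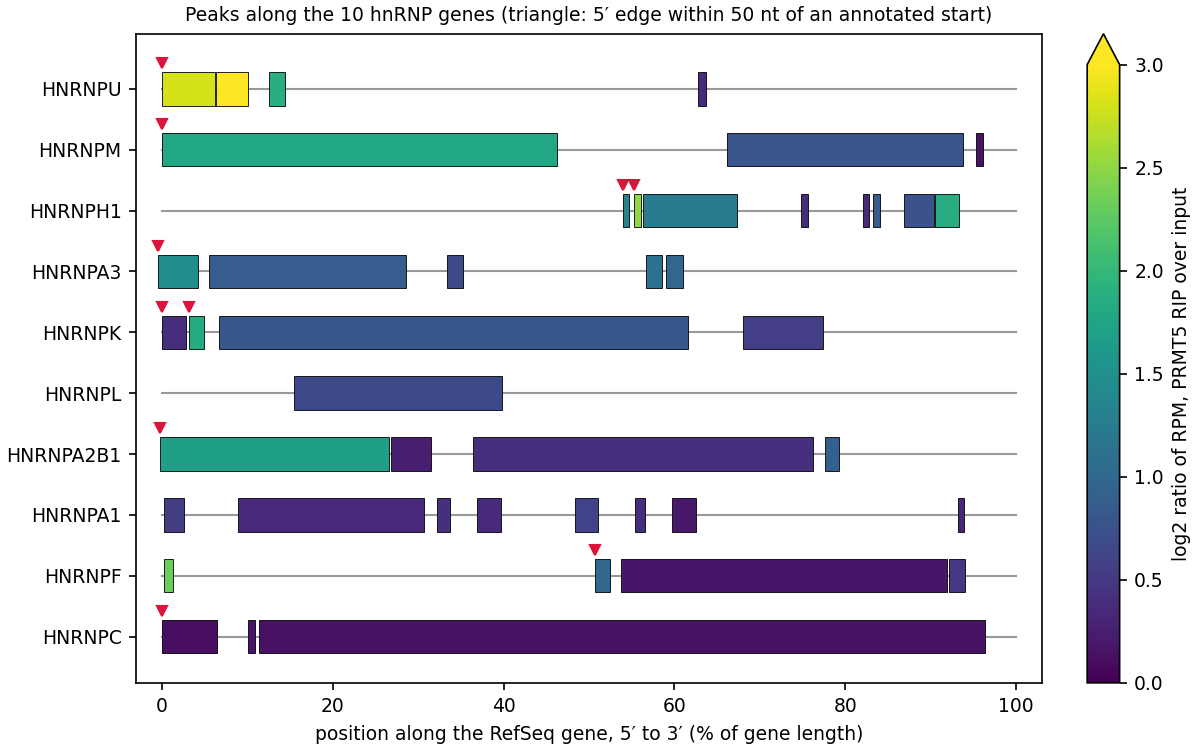
Peaks (boxes) along each of the 10 hnRNP genes, from the 5′ end (0%) to the 3′ end (100%) of the RefSeq gene, coloured by the log2 ratio of RPM in PRMT5 RIP over input, with genes ordered from the lowest (HNRNPC, bottom) to the highest (HNRNPU, top) ratio of summed RPM. Boxes narrower than 0.8% of the gene are drawn at that width, and triangles mark the 10 peaks that begin within 50 nt of an annotated start.

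Summed over the peaks of each gene, the ratio of RPM rose from HNRNPC (1.10) through HNRNPF (1.21), HNRNPA1 (1.30), HNRNPA2B1 (1.56), HNRNPL (1.58), HNRNPK (1.73), HNRNPA3 (1.96), HNRNPH1 (2.25) and HNRNPM (2.55) to HNRNPU (5.80). Neighbours in this order differed by 0.01 to 0.27 on the log2 scale, except HNRNPM and HNRNPU, which differed by 1.19. With pooled values, no neighbouring pair can be said to differ beyond its spread. HNRNPH1, HNRNPM and HNRNPU reached 2-fold, 3 of 10 genes, against 62.3% of all genes. HNRNPM fell below 2-fold with a log2 ratio of 0.80 when the median over its peaks, or its peak with the highest input alone, was taken, and of 0.78 without the peak overlapped on the opposite strand. The median log2 ratio of summed RPM was 0.73 over the 10 genes and 1.20 over all 8478, and 8 of the 10 lay below the latter. HNRNPC lay at the percentile 3.94 of all genes and HNRNPU at the percentile 94.9.

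The level of input RNA moved with these ratios. The summed input of the 10 genes ran from 6.24 RPM (HNRNPL) to 1016.62 RPM (HNRNPA1), with a median of 28.0 RPM against 2.28 RPM over all genes. Among the 2801 genes of the list within that range of input, the median log2 ratio was 0.82 and 35.7% reached 2-fold, and 6 of the 10 hnRNP genes lay below that median. Over the 44 hnRNP peaks, the log2 ratio and the input RPM had a Spearman's rho of -0.52, and over all 18993 peaks of -0.45. These are descriptions across peaks that share libraries, and input RPM enters both measures. Where the input was 10 RPM or more, the median log2 ratio was 0.40 over 17 hnRNP peaks and 0.65 over all 2586. Where it was under 1 RPM, the median was 1.17 over 12 hnRNP peaks and 1.36 over all 10105.

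Peaks near an annotated start had a higher median ratio than the other peaks, in the hnRNP genes and over the whole list. The 10 hnRNP peaks that began near an annotated start had a median log2 ratio of 1.57, and the other 34 of 0.54. Over the whole list these medians were 1.38 for 3219 peaks near a start and 1.04 for the other 15774. HNRNPA1 is missing from the promoter table. Its 8 peaks (log2 ratios of 0.20 to 0.59) were therefore counted among the other 34 hnRNP peaks whatever their position. The 5′-most peak had a higher ratio than the 3′-most peak in 6 of the 9 hnRNP genes with several peaks (66.7%). That is near the share of all 4645 such genes (69.5%). The 6 genes were HNRNPA1, HNRNPA2B1, HNRNPA3, HNRNPF, HNRNPM and HNRNPU. The difference was 2.45 on the log2 scale in HNRNPU, 1.84 in HNRNPF, 1.64 in HNRNPM and 0.77 in HNRNPA2B1, and smaller in HNRNPA3 (0.49) and HNRNPA1 (0.22). In HNRNPC (-0.02), HNRNPK (-0.16) and HNRNPH1 (-0.54) the 3′-most peak was the higher. The direction in HNRNPF and HNRNPH1 rested on end peaks with under 0.1 RPM in input. With an input of at least 0.5 RPM required, the difference was -0.31 in HNRNPF and 0.58 in HNRNPH1, so that both turned while the count stayed at 6. In HNRNPM the difference was 0.66 without the peak overlapped on the opposite strand. The median difference was 0.49 over the 9 hnRNP genes and 0.41 over all 4645 genes.

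**Figure D3:**
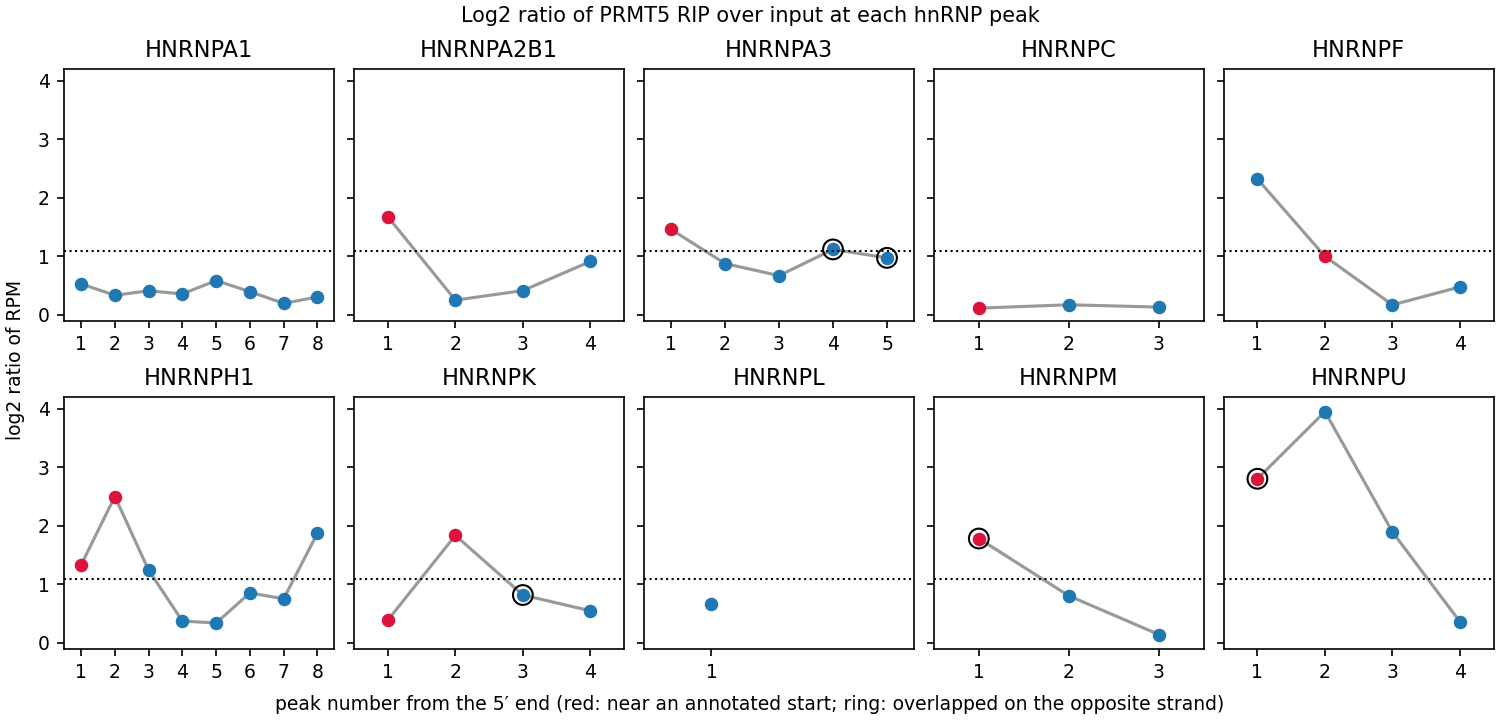
Log2 ratio of RPM in PRMT5 RIP over input (y axis) at each peak of the 10 hnRNP genes, numbered from the 5′ end (x axis), with the median of all peaks of the list (1.10) as a dotted line. Peaks near an annotated start (red) include the first peaks of HNRNPA2B1, HNRNPA3, HNRNPM and HNRNPU above that line and those of HNRNPC and HNRNPK below it, and rings mark the 5 peaks overlapped by a peak on the opposite strand.

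None of the 10 genes had a peak that reached its annotated 3′ end. The last peak ended 412 nt from the end of the RefSeq gene in HNRNPA1 and 9619 nt from it in HNRNPL, with a median of 2240.5 nt over the 10 genes and of 4184 nt over 7176 named genes of the list. It ended past 90% of the gene's length in HNRNPA1, HNRNPC, HNRNPF, HNRNPH1 and HNRNPM, and at 61.0% and 63.6% in HNRNPA3 and HNRNPU. Peaks covered a median of 39.2% of the gene, from 12.6% in HNRNPU to 91.5% in HNRNPC. Of the 44 peaks, 5 were wider than 5000 nt and 5 were 25 nt wide, with a median of 302 nt against 275 nt over all peaks. Which exons, introns or UTRs the peaks cover was not analysed here.

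On the opposite strand, 6 peaks assigned to other genes lay over 5 of the 44 hnRNP peaks (11.4%), in 4 genes, against 18.1% of all peaks. The library kit keeps strand by the labels, but the use of strand in the authors' counting is not given in the sources used here, so the RNA of each strand cannot be told apart at these places. Over the first HNRNPU peak lay a peak of 750 nt assigned to ENSG00000273175.2, with 58.55 RPM in PRMT5 RIP against 8.22 in input. Its ratio was 7.12, beside 7 for the HNRNPU peak. When the overlapped peak was left out, the log2 ratio of summed RPM of HNRNPU was 1.02 rather than 2.53, below that of HNRNPH1 (1.17). HNRNPA3 peak 5 shared 96.4% of its bases with a peak of ENSG00000116044.17 with 8.5 RPM against 4.39, beside 8.83 against 4.49. Over HNRNPA3 peak 4 lay 2 more peaks of that gene, with ratios of 2.06 and 2.33.

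At HNRNPM and HNRNPK the strands differed more. Within the wide first HNRNPM peak, a peak of 150 nt assigned to ENSG00000279827.1 had 14.22 RPM in PRMT5 RIP against 1.65 in input. Its ratio of 8.62 was above the 3.45 of the HNRNPM peak, of which it covered 0.735%. Over the third HNRNPK peak, HNRNPK-AS1, annotated as antisense to HNRNPK, had 14.72 RPM against 9.72, a ratio of 1.51 beside 1.76.

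By name, HNRNPA1 has the most copies in the genome. RefSeq names 121 copies of these 10 genes, 77 of HNRNPA1, 17 of HNRNPA3 and 13 of HNRNPC, and none of HNRNPA2B1. Peaks were assigned to 4 of the HNRNPA1 copies and to no copy of the other genes. HNRNPA1L2 had 8.94 RPM in PRMT5 RIP against 10.26 in input, below input, and HNRNPA1L3 had 0.93 against 0.47. HNRNPA1P7 had 31.97 against 22.34 and 6.16 against 5.42 in its peaks, and HNRNPA1P10 had 3 peaks of at most 1.08 RPM in PRMT5 RIP. How the authors placed reads that match several copies is not given in the sources used here.

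The 10 genes were set beside other genes of RNA processing. Of 19 further hnRNP-family symbols, 18 were matched to a peak. A symbol of any list without a match may still have a peak, since 7179 of 8478 identifiers received a symbol. The 18 had a median log2 ratio of summed RPM of 0.86, a range from 0.47 to 2.64, and 8 genes past 2-fold. The highest were HNRNPUL2, a relative of HNRNPU (2.64, from 3.73 RPM against 0.59), SYNCRIP, also called hnRNP Q (2.32, from 0.14 RPM against 0.02, a linear ratio of 5.40 to 9.67 by rounding), and HNRNPLL (2.20, from 5.5 RPM against 1.19). Without the pseudocount, SYNCRIP (7) would stand above HNRNPUL2 (6.32). HNRNPLL is the paralog of HNRNPL that is known for CD45 splicing in activated T cells, and the log2 ratio of HNRNPL itself was 0.66. The lowest were HNRNPH3 (0.47, from 11.87 RPM against 8.55), the polypyrimidine tract binder PTBP1 (0.50, from 41.23 against 29.14) and RBMX, also called hnRNP G (0.51, from 27.61 against 19.42). HNRNPC, HNRNPF and HNRNPA1 lay below all 18. The median was 1.30 over 11 of 14 SR splicing factors, of which 6 passed 2-fold, and 0.66 over 15 of 18 Sm and LSm genes, of which 4 did.

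As a check of the cell type, 7 of 10 T cell markers had a peak, among them CD3D, CD3E, CD3G, CD2 and CD7, with 3.46 to 417.1 RPM summed in input. TRAC, TRBC1 and PTPRC were not matched to a peak. The median log2 ratio of the 7 was 0.31, and none reached 2-fold. Of 6 markers of other blood cells, CD79A alone was matched to a peak, with 69.91 RPM in PRMT5 RIP against 37.28 in input. The part of other cells in the hnRNP values was not tested.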

How the data were processed

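The authors deposited 1 peak list for 2 PRMT5 RIP and 2 input libraries, with RPM values rounded to 0.01. By the submitters' processing notes, fastp, HISAT2 and hg38 were used. The peak caller, annotation, pooling and depth per library are not given in the sources used here. The authors' log2FC, p-value and FDR per peak compare PRMT5 RIP with input. They were not analysed, except for the deposited FDR (an adjusted p-value) as 1 stricter threshold of 1e-10.

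A peak with several identifiers was given to the first of them, and positions were counted from 1. Symbols came from a supplementary gene table or, for all 10 hnRNP genes, from the RefSeq gene (GRCh38.p14) at that position. The strand had to match where the promoter table gave one, which it did not for HNRNPA1. A symbol was given to 7179 of 8478 identifiers. Ratios are log2((RIP + 0.01)/(input + 0.01)), which understate changes of low values. Fold counts used 2-fold on this scale, so a peak with 0.53 against 0.26 RPM lies exactly on it. Linear ratios were printed without the pseudocount. Starts came from the RefSeq promoter table. Every hnRNP gene and peak is named, with the 3 highest and 3 lowest genes of the further hnRNP family and the copies with a peak.

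The members and lists were chosen with earlier results of these data known. Rounding intervals cover the 0.01 step only, and no counting interval was computed because the depth is unknown. No test was made, as the list holds 1 pooled value per group. Scripts were tested on simulated data and used Python 3.11.15, pandas 2.3.3, numpy 2.4.6 and matplotlib 3.10.9.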

Additional observations from a re-analysis of the deposited data

Results flagged for a closer look

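The 6 peaks on the opposite strand over hnRNP peaks belong to other genes and were singled out because they hold RPM above input where the hnRNP genes were measured. Over HNRNPA3 their ratios were 2.06 (2.39 against 1.16 RPM), 2.33 (1.00 against 0.43 RPM) and 1.94 (8.5 against 4.39 RPM). Over HNRNPK the ratio was 1.51, over HNRNPM 8.62 and over HNRNPU 7.12. Their part in the hnRNP values was not tested. For HNRNPU, the peaks without such an overlap gave a log2 ratio of 1.02.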

How the results depend on the processing

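Of 115 alternative values, 106 stayed within 1.5 times of the reported ones, ratios being compared on the linear scale, 5 moved further and 4 changed direction. Those 4 were the differences between the 5′-most and 3′-most peak of HNRNPF (1.84 as reported, -0.28 with a pseudocount of 1 and -0.31 with an input of at least 0.5 RPM) and HNRNPH1 (-0.54 as reported, 0.51 and 0.58). The count of hnRNP peaks past 2-fold was 14 as reported and 7 with a pseudocount of 1, which shrinks the ratios of low values. It was 9 when an input of at least 0.5 RPM was required, which leaves 37 peaks. The share of all peaks past 2-fold was not computed at these alternative settings. The log2 ratio of HNRNPU was 2.53 as reported and 1.02 without the peak overlapped on the opposite strand. Its 5′ to 3′ difference was 2.45 and 3.60, the latter from a 5′ peak with 0.01 RPM in input. The 5′ to 3′ difference of HNRNPM was 1.64 and 0.66. The number of peaks was 36 to 44, the median log2 ratio over peaks 0.39 to 0.84 (0.62 without HNRNPU and 0.84 without HNRNPA1), and the median over genes 0.69 to 0.73. The 5′-most peak was the higher in 6 of 9 genes, and in 5 of 8 when peaks wider than 5000 nt were left out. Within 25 nt of a start began 7 of the 44 hnRNP peaks (15.9%), against 12.8% of all peaks. Within 100 nt began 10 (22.7%), against 21.4% of all peaks, a smaller gap than at 50 nt. The alternatives without HNRNPU, HNRNPA1 or, for sums per gene, overlapped peaks, those for distance to the start and the ratio without a pseudocount were chosen after seeing the data. No paired analysis was possible because the list holds 1 pooled value per group. Replicates could not be left out in turn for the same reason. In 4 hnRNP peaks the input was under 0.1 RPM, where steps of 0.01 RPM move the ratio.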
